A study of Canis lupus familiaris with 30 samples.

Results

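PTGER4, MCL1, BIRC3, ARG2, ICAM1 and CXCL10, a prostaglandin receptor with genes of cell survival and inflammation, were followed in blood mononuclear cells of dogs on a kibble or a raw meat diet. The genes were chosen by name, because of their change from week 3 to week 6 on each diet and their difference between diets at week 9. Every non-control probe whose transcript identifier belongs to one of them was taken, which gave 9 probes for the 6 genes, out of 43603 non-control probes on the array. All 9 probes passed the filter on dim spots, and the 6 genes were 6 of 1087 named genes among 25950 tested units. A unit is a gene, or a transcript without a gene name, represented by its brightest probe.

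The study measured RNA of peripheral blood mononuclear cells, the fraction of lymphocytes and monocytes that density centrifugation recovers from blood. Of the dogs, 8 ate kibble, a dry diet that contains carbohydrate, and 7 ate raw red meat, a diet high in protein and fat. Blood was drawn at weeks 0, 3, 6 and 9, so that each diet has 4 groups, and week 0 is the start of the feeding period of 9 weeks. RNA of 2 groups was hybridised to each of 30 arrays, one in the green dye Cy3 and the other in the red dye Cy5. Week 9 was set against week 0, and week 6 against week 3, on 4 arrays each per diet, while meat was set against kibble on 3 arrays each at weeks 0 and 3 and on 4 arrays each at weeks 6 and 9. Arrays are numbered here as in the labels, within a pair of groups and a dye order.

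A group thus appears in 7 or 8 channels, although the labels give 6 biological replicates per group, and which dog lies on which array is not given. The p-values therefore measure the spread between arrays. No array connects weeks 0 and 9 with weeks 3 and 6, and the diet arrays of a week share a slide, so that among them a week and its slide cannot be separated. The arrays that set weeks against each other have a single dye order per diet, and the fitted values remove a dye effect for each gene, which lay between -0.12 (MCL1) and 0.07 (PTGER4 and BIRC3) on the log2 scale. Array 1 of each diet's week 0 and 9 pair stood apart in the number of spots well above background, with 20182 in Cy3 and 19505 in Cy5 for kibble and 42898 and 43610 for meat, against 21751 to 31698 per channel on the other 28 arrays. Array 2 of each diet's week 3 and 6 pair had the lowest limma array weights of the 30, 0.388 for kibble and 0.384 for meat. Precision is limited by how few arrays there are.

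Prostaglandin E2 acts on leukocytes through several receptors, of which PTGER4 encodes EP4, a receptor coupled to the rise of cyclic AMP inside the cell. MCL1 is an anti-apoptotic member of the BCL2 family with a short-lived protein, and BIRC3 encodes cIAP2, an inhibitor of apoptosis that also takes part in NF-kB signalling. ARG2 encodes the mitochondrial arginase, which splits arginine into ornithine and urea, ICAM1 encodes an adhesion molecule bound by the integrin LFA-1, and CXCL10 encodes a chemokine that interferon induces and that draws cells carrying CXCR3.

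PTGER4 was higher at week 6 than at week 3 on both diets. On the kibble arrays the dye-adjusted log2 ratio of week 6 over week 3 was 0.39, 0.76, 0.43 and 0.61, and the fitted value was 0.53 ± 0.10 (SE, 4 direct arrays), or 1.45-fold. On the meat arrays it was 0.24, 0.90, 0.48 and 0.37, with a fitted value of 0.51 ± 0.10 (SE), or 1.43-fold. All 8 arrays thus lay above 0, and array 2 of each diet was the highest. The difference between the diets in this change was -0.02 ± 0.12 (SE), with a 95% interval from -0.27 to 0.23. By median centring in place of loess the meat value of PTGER4 was 0.82 and the difference between the diets 0.21. Without array 2 of the kibble pair the kibble value of PTGER4 was 0.48, and without array 2 of the meat pair the meat value was 0.43. Within the first slide of these arrays the mean ratio of PTGER4 was 0.58 on kibble and 0.57 on meat, and within the second it was 0.52 and 0.43, with 2 arrays each. These values are among those that chose the genes, so they stand as a description without a test. In bulk samples, a change in how many cells of a type are present and a change in RNA per cell cannot be told apart.

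From week 0 to week 9, a pair of weeks that shares no array with weeks 3 and 6, most PTGER4 ratios had the opposite sign. The 4 kibble arrays gave log2 ratios of week 9 over week 0 of -0.39, -0.42, -0.01 and -0.43, so that array 3 alone was near 0. The fitted value was -0.29 ± 0.10 (SE), with an adjusted p of 0.0507 (limma, Benjamini-Hochberg over all units), just above the threshold of 0.05. The meat arrays gave 0.02, -0.45, -0.03 and -0.47, so that 2 arrays were near 0 and 2 were clearly lower, and the fitted value was -0.25 ± 0.10 (SE), with an adjusted p of 0.122 by limma. Over 49 other settings, single left-out arrays included, the kibble value of PTGER4 stayed negative, from -0.63 to -0.23, and 17 of the 49 took it past the threshold, with adjusted p by limma from 0.0056 to 0.255. Without array 3 of the kibble pair it was -0.35, with an adjusted p of 0.0295 by limma, and without array 1, which had few detected spots, it was -0.27 with an adjusted p of 0.112. Without array 1 of the meat pair, which had many detected spots, the kibble value was -0.31 with an adjusted p of 0.0328 and the meat value was -0.32 with an adjusted p of 0.0595, both by limma. Of 7 genes listed for T cells, CD4 and CD28 were measured, and whether they stood for T cells alone was not tested. Their mean log2 ratio was below 0 on all 8 arrays of week 9 over week 0. It ran from -0.70 to -0.27 on kibble and from -0.95 to -0.07 on meat. CD4 was called lower on meat, at -0.90 ± 0.27 (SE, adjusted p 0.0427 by limma), but the fitted value of CD28 was above 0 there. On kibble the fitted values of both genes were below 0, 0 were called, and both had an unadjusted p under 0.05. Neutrophil markers, 6 measured of 8 listed, had median log2 changes over these weeks of -0.25 on kibble and -0.24 on meat. Of the 6, 1 was above 0 on kibble and 0 on meat. For week 6 over week 3 the mean of CD4 and CD28 was 0.36, 0.02, 0.25 and -0.00063 on the kibble arrays. On the meat arrays it was -0.13, -0.13, 0.78 and 0.44. Over the 30 arrays that mean correlated with PTGER4 at r = 0.50, with ICAM1 at 0.44 and with MCL1 at 0.43. With the other marker lists PTGER4 had r from -0.40 (B cell) to 0.27 (neutrophil). The correlations are descriptions over arrays that share groups and slides. The part of these markers in the PTGER4 values was not tested.

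No member passed the test in either change from week 0 to 9. On kibble 0 of the 6 genes were called, where 13.6% of all units were called in either direction, and 1 gene, PTGER4, had an unadjusted p under 0.05. On meat 0 of the 6 were called against 8.03% of all units, again with PTGER4 alone under an unadjusted p of 0.05. These shares depend on single arrays: on kibble 8.06% were called without array 4 of the direct pair and 8.66% without array 2, and on meat 1.01% without array 2 and 2.78% without array 3. The median log2 change of the 6 genes was -0.07 on kibble and -0.08 on meat, while the median over all units was 0.00 in both. The difference between the diets in the change from week 0 to 9 was called for 0 of the 6 genes and for 0% of all units by limma, and no member had an unadjusted p under 0.05 there. In all tests it holds that the genes were chosen with earlier results of these arrays known, so a call is not independent evidence.

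MCL1 followed PTGER4 between weeks 3 and 6. The kibble arrays gave log2 ratios of week 6 over week 3 of 0.12, 0.65, 0.33 and 0.28, with a fitted value of 0.33 ± 0.11 (SE), or 1.26-fold. The meat arrays gave 0.06, 0.79, 0.56 and 0.51, with a fitted value of 0.49 ± 0.11 (SE), or 1.41-fold. All 8 arrays were above 0, array 1 was the lowest on either diet and array 2 the highest. Without array 2 of its own pair the MCL1 value was 0.26 on kibble and 0.43 on meat. From week 0 to 9 the fitted values of MCL1 were 0.02 ± 0.11 (SE) on kibble and -0.14 ± 0.11 (SE) on meat, with arrays on both sides of 0. By median centring in place of loess the kibble value of MCL1 was -0.39, so its sign there depends on the scaling.

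BIRC3 had the same direction from week 3 to 6 with more scatter. Its kibble arrays gave log2 ratios of -0.01, 0.66, 0.03 and 0.19, so that array 2 alone was far from 0, and the fitted value was 0.26 ± 0.10 (SE). Its meat arrays gave 0.21, 0.49, 0.60 and 0.31, all above 0, and the fitted value was 0.36 ± 0.10 (SE), or 1.29-fold. Without array 2 the kibble value of BIRC3 was 0.16, and by median centring the meat value was 0.66. By that scaling the difference between the diets in the change from week 3 to 6 was 0.32 for BIRC3 and 0.44 for MCL1, against 0.11 and 0.16. A second, dimmer BIRC3 probe gave smaller changes over these weeks, 0.04 ± 0.05 (SE) on kibble and 0.11 ± 0.05 (SE) on meat. The BIRC3 probes also parted from week 0 to 9 on kibble, where the brighter one gave -0.07 ± 0.10 (SE) with an adjusted p of 0.719 and the dimmer one -0.24 ± 0.05 (SE) with an adjusted p of 0.00246, both by limma over all probes that passed the filter.

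ARG2 was the gene whose change from week 3 to 6 differed most in size between the diets. The meat arrays gave log2 ratios of week 6 over week 3 of 0.23, 0.37, 0.96 and 1.12, all above 0, with a fitted value of 0.74 ± 0.20 (SE), or 1.67-fold. The kibble arrays gave 0.32, -0.11, 0.37 and 0.20, with a fitted value of 0.13 ± 0.20 (SE). The 2 highest meat arrays lay on the second slide, where the mean was 1.04, against 0.30 on the first. The difference between the diets in this change was 0.61 ± 0.25 (SE), with an interval of 95% from 0.10 to 1.11, given as a description because it is made of contrasts that chose the genes. With the slide as a fixed block this ARG2 difference was 0.98 ± 0.28 (SE).

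**Figure D1:**
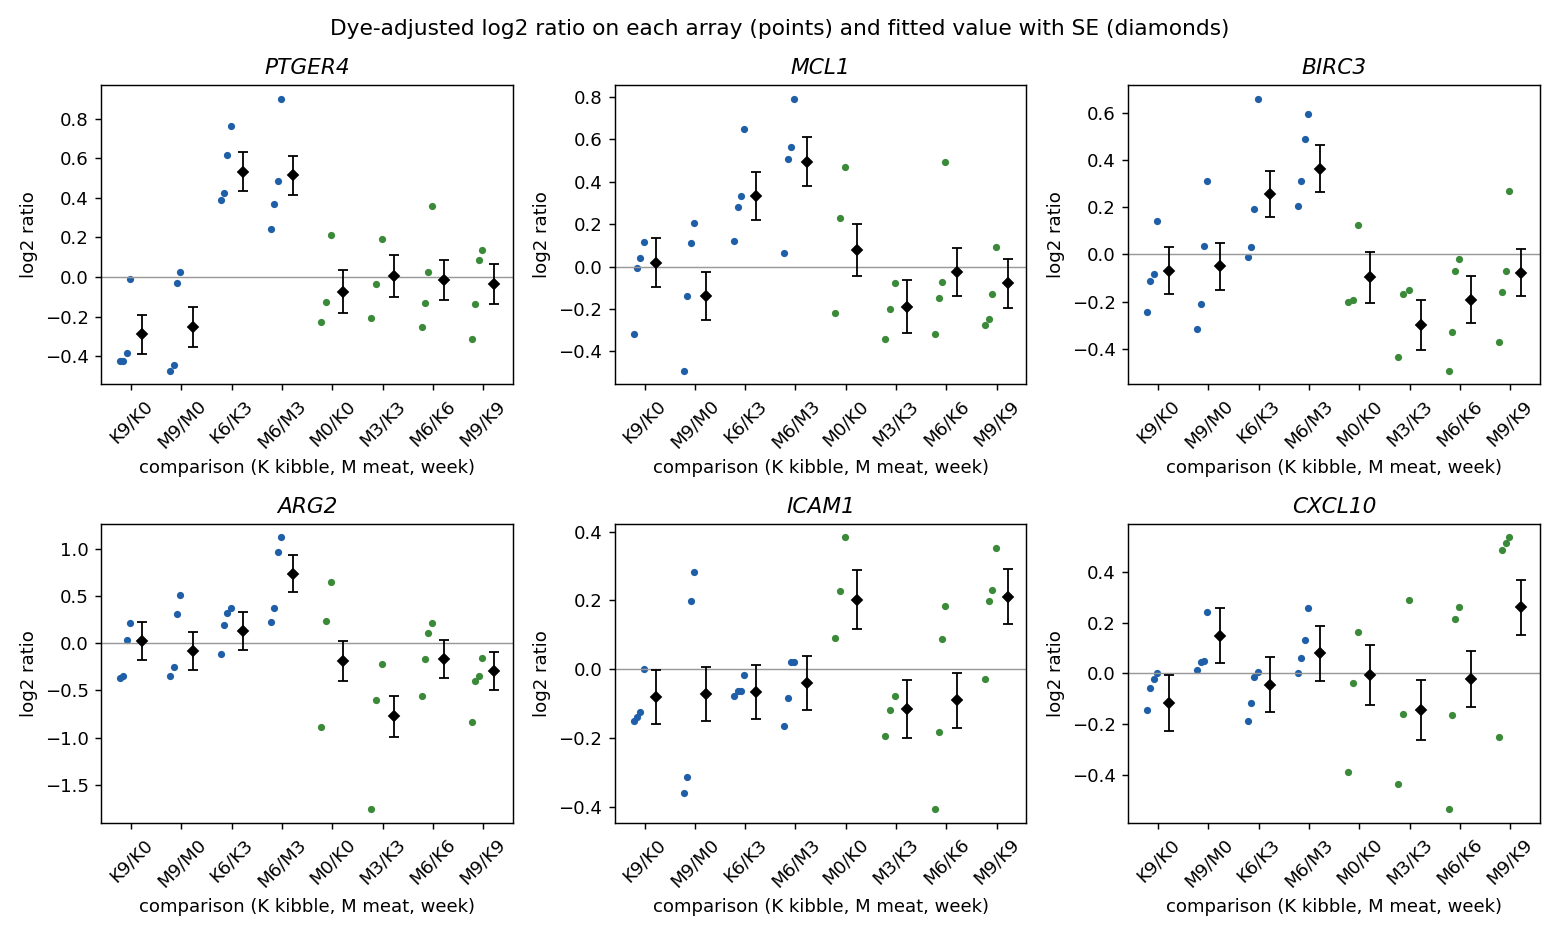
Dye-adjusted log2 ratio of each of the 6 genes (vertical axis) on every array, by comparison (horizontal axis, K kibble, M meat, number the week), turned to later over earlier or meat over kibble. Points are single arrays and diamonds are fitted values with their SE, which borrow from other arrays of the loop. PTGER4 and MCL1 lie above 0 on all 8 arrays of week 6 over week 3, and ARG2 spreads from -1.76 to -0.22 for meat over kibble at week 3.

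At week 3 ARG2 was lower on meat than on kibble, the only call among the 6 genes' reported probes in the tested comparisons. The 3 arrays gave log2 ratios of meat over kibble of -1.76, -0.60 and -0.22, all below 0, and the array with kibble in Cy3 was far lower than the others. The fitted value was -0.77 ± 0.22 (SE), 1.71-fold lower on meat, with an adjusted p of 0.0334 by limma. One of 6 genes was thus called, where 6.09% of all units were called in either direction at week 3. That share was 0.829% without array 2 with meat in Cy3 and 2.26% without the array with kibble in Cy3. The call was lost without any one of the 3 direct arrays. Without the array with kibble in Cy3 the ARG2 value was -0.49 and its adjusted p was 0.204 by limma. Without array 1 with meat in Cy3 it was -0.84 (adjusted p 0.0657), and without array 2 -0.98 (adjusted p 0.0585), both by limma. In all, the call was lost in 10 of 49 other settings, with adjusted p by limma from 0.00104 to 0.204. In the meat group at week 3 the log2 signal of ARG2 ran from 9.58 to 11.04 with a median of 10.58 over 7 channels, against 10.58 to 11.42 with a median of 11.21 in the kibble group, so that the groups overlapped.

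Markers of myeloid cells were also lower on meat at week 3, and their medians were below 0 in the other weeks too. Of 5 measured monocyte markers, 4 were called lower on meat, and their median log2 difference was -0.81. Of 6 measured neutrophil markers, 3 were called lower, with a median of -0.71. At week 0, the start of feeding, the monocyte and neutrophil medians were both -0.36, and ELANE alone was called lower on meat. The 3 direct week 0 arrays differed, with monocyte means of -1.31, 0.23 and 0.25 and neutrophil means of -1.24, 0.03 and 0.12. At week 9 the monocyte median was -0.34 and the neutrophil median -0.50. The mean log2 signal of the monocyte markers ran from 10.77 to 11.93 in the meat channels at week 3 and from 11.61 to 12.55 in the kibble channels, and that of the neutrophil markers from 9.47 to 10.73 and from 9.52 to 12.05. On the 3 week 3 arrays the mean monocyte marker ratio was -1.24 on the array with kibble in Cy3 and -0.57 and -0.55 on the others. The neutrophil mean there was -2.20, -0.86 and 0.46, in the same order. Over all 30 arrays the log2 ratio of ARG2 correlated with the monocyte mean at r = 0.84 and with the neutrophil mean at r = 0.74, as a description over arrays that share groups and slides. The part of these markers in the ARG2 result was not tested.

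BIRC3 was also below 0 on the 3 arrays of meat over kibble at week 3, with log2 ratios of -0.15, -0.17 and -0.43. Its fitted value was -0.30 ± 0.11 (SE), and its adjusted p of 0.0905 by limma missed the threshold. At week 6 BIRC3 was -0.07, -0.49, -0.33 and -0.02 on the 4 arrays, again with no array above 0, and the fitted value of -0.19 ± 0.10 (SE) had an adjusted p of 0.296 by limma. The dimmer BIRC3 probe gave -0.06 ± 0.06 (SE) at week 3 and 0.00 ± 0.05 (SE) at week 6. MCL1 was likewise below 0 on all 3 arrays at week 3, with log2 ratios of -0.34, -0.20 and -0.08 and a fitted value of -0.19 ± 0.12 (SE). PTGER4 showed nothing of the kind, with fitted diet differences of -0.07 ± 0.11, 0.00 ± 0.11, -0.01 ± 0.10 and -0.04 ± 0.10 (SE) at weeks 0, 3, 6 and 9.

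No gene of the 6 was called between the diets at week 0 or week 6. At week 0 the share of all units called was 0.312%, and 1 member, ICAM1, had an unadjusted p under 0.05. At week 6 the share was 6.24% and 0 members had an unadjusted p under 0.05 by limma. The week 0 share ran from 0.0886% without the array with kibble in Cy3 to 0.84% without array 2 with meat in Cy3, and the week 6 share was 0.532% without array 1 and 3.67% without array 2 with kibble in Cy3. The median log2 difference of the 6 genes was -0.04, -0.17 and -0.06 at weeks 0, 3 and 6, against 0.00 over all units at each of these weeks.

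ICAM1 and CXCL10 were the members with higher values on meat at week 9. ICAM1 gave log2 ratios of meat over kibble of 0.35, 0.23, 0.20 and -0.03, with a fitted value of 0.21 ± 0.08 (SE), or 1.16-fold. CXCL10 gave 0.54, 0.51, 0.49 and -0.25, with a fitted value of 0.26 ± 0.11 (SE), or 1.20-fold. With the processed signals of Feature Extraction the CXCL10 value was 0.71 ± 0.35 (SE). For both genes the exception was array 2 with kibble in Cy3. These week 9 values helped to choose the genes and carry no test. ARG2 lay on the other side at week 9, with -0.40, -0.83, -0.35 and -0.16 on the 4 arrays and a fitted value of -0.29 ± 0.20 (SE).

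ICAM1 ratios had the same sign at week 0, the start of the feeding period. The log2 ratios of meat over kibble were 0.23, 0.38 and 0.09, all above 0, with a fitted value of 0.20 ± 0.09 (SE) and an adjusted p of 0.454 by limma, which misses the threshold. At week 3 the 3 arrays gave -0.08, -0.19 and -0.12, all below 0, and the fitted value was -0.12 ± 0.09 (SE). At week 6 ICAM1 gave 0.18, -0.18, -0.41 and 0.09, on both sides of 0. From week 0 to 9 the fitted value was -0.08 ± 0.08 (SE) on kibble and -0.07 ± 0.08 (SE) on meat. A second ICAM1 probe, well above background in 32 of 60 channels, gave 0.12 ± 0.05 (SE) for meat over kibble at week 9 and -0.02 ± 0.06 (SE) at week 0, so the probes shared the sign at week 9 only.

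CXCL10 had the dimmest of the 6 reported probes, well above background in 53 of 60 channels. From week 0 to 9 its fitted value was -0.12 ± 0.11 (SE) on kibble and 0.15 ± 0.11 (SE) on meat, and the meat arrays gave 0.04, 0.24, 0.05 and 0.01, all above 0. The difference between the diets in that change was 0.27 ± 0.13 (SE), with an adjusted p of 0.654 by limma. A second CXCL10 probe, well above background in 46 of 60 channels, gave 0.16 ± 0.09 (SE) for meat over kibble at week 9 and -0.10 ± 0.09 and 0.16 ± 0.09 (SE) for week 9 over week 0 on kibble and on meat. The CXCL10 probes thus had the same sign in these 3 comparisons.

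The level of each gene was then read in all 8 groups, beside the spread of the channels. The mean log2 signal of PTGER4 was 10.87 ± 0.23, 10.75 ± 0.27, 11.17 ± 0.18 and 10.60 ± 0.16 (SD) at weeks 0, 3, 6 and 9 on kibble. On meat it was 10.83 ± 0.14, 10.71 ± 0.33, 11.06 ± 0.15 and 10.53 ± 0.18 (SD). Weeks 6 were thus the highest and weeks 9 the lowest on both diets, with 7 channels at weeks 0 and 3 and 8 at weeks 6 and 9, but a step between the 2 pairs of weeks is also a step between slides. In the highest group, week 6 on kibble, the channels of PTGER4 ran from 10.85 to 11.39 with a median of 11.20. In the lowest, week 9 on meat, they ran from 10.18 to 10.71 with a median of 10.53. These groups were picked by their level and differ in diet, week and slide. How far apart such ends lie for other units was not counted.

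For MCL1 the mean log2 signal was 13.65 ± 0.22, 13.30 ± 0.21, 13.58 ± 0.23 and 13.66 ± 0.11 (SD) on kibble in the order of weeks, and 13.64 ± 0.24, 13.15 ± 0.25, 13.69 ± 0.22 and 13.60 ± 0.11 (SD) on meat. Week 3 was the lowest group on each diet. For BIRC3 it was 10.17 ± 0.12, 10.07 ± 0.30, 10.38 ± 0.14 and 10.19 ± 0.15 (SD) on kibble and 10.11 ± 0.39, 9.93 ± 0.18, 10.27 ± 0.26 and 10.08 ± 0.25 (SD) on meat, again lowest at week 3. For ARG2 it was 11.04 ± 0.52, 11.09 ± 0.31, 11.13 ± 0.30 and 11.09 ± 0.27 (SD) on kibble and 10.69 ± 0.28, 10.33 ± 0.56, 11.02 ± 0.27 and 10.70 ± 0.37 (SD) on meat. The 4 kibble means of ARG2 were nearly level and the meat mean was below the kibble mean in each week. The direct arrays of ARG2 did not all share that sign, with -0.89, 0.64 and 0.24 for meat over kibble at week 0 and 2 of 4 arrays above 0 at week 6, and with the slide as a fixed block the week 0 difference was 0.16.

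For ICAM1 the mean log2 signal was 8.64 ± 0.26, 8.74 ± 0.24, 8.65 ± 0.29 and 8.57 ± 0.32 (SD) on kibble and 8.77 ± 0.38, 8.64 ± 0.19, 8.60 ± 0.15 and 8.75 ± 0.36 (SD) on meat. For CXCL10 it was 6.92 ± 0.30, 6.79 ± 0.30, 6.87 ± 0.27 and 6.84 ± 0.20 (SD) on kibble and 7.00 ± 0.22, 6.82 ± 0.21, 6.96 ± 0.24 and 7.14 ± 0.26 (SD) on meat. With the 8 groups put in order of level, neighbouring groups differed by less than the larger of their SDs in 7 of 7 pairs for each gene other than MCL1, and in 6 of 7 for MCL1. The ends of the order were 0.80 apart for ARG2, 0.65 for PTGER4, 0.54 for MCL1, 0.45 for BIRC3, 0.35 for CXCL10 and 0.20 for ICAM1, each as a difference in log2 signal.

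**Figure D2:**
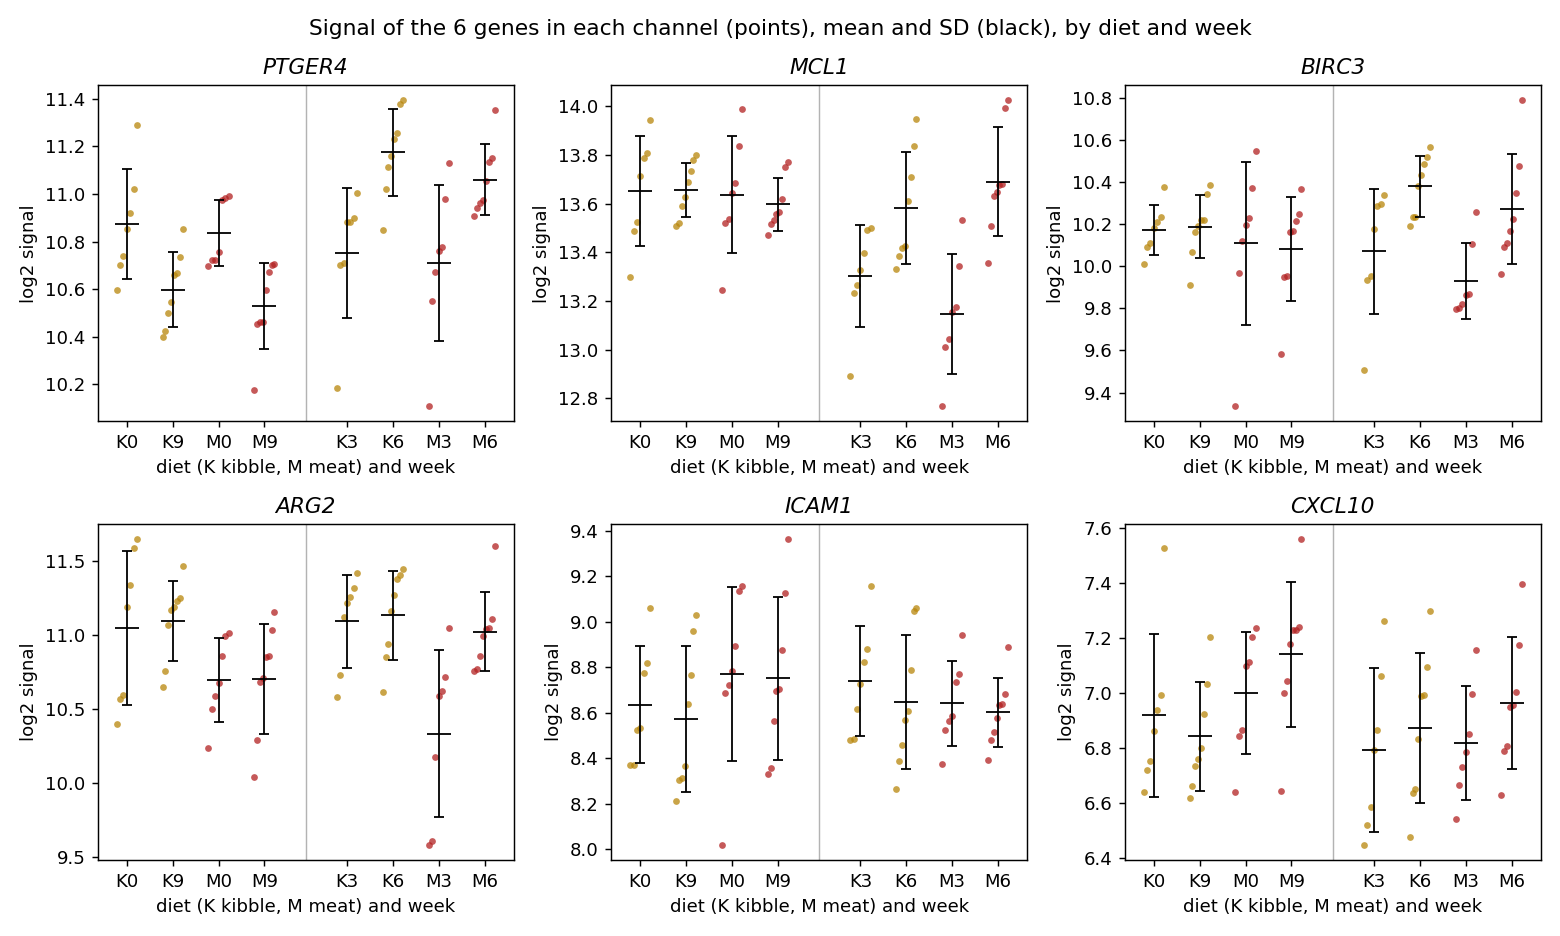
Log2 signal of each gene's reported probe (vertical axis) in every channel, by diet and week (horizontal axis, K kibble in gold, M meat in red), with the mean and SD in black. The grey line parts weeks 0 and 9 from weeks 3 and 6, which lie on different arrays; PTGER4 reaches its highest mean, 11.17, at week 6 on kibble and ARG2 its lowest, 10.33, at week 3 on meat.

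Across arrays, PTGER4, MCL1 and BIRC3 varied together, and ICAM1 and CXCL10 less so. Over the 30 arrays the log2 ratios of PTGER4 and MCL1 correlated at r = 0.79, with r = 0.47 over the 15 arrays of weeks 0 and 9 and r = 0.93 over the 15 of weeks 3 and 6. MCL1 correlated with BIRC3 at 0.71 and with ARG2 at 0.69, and PTGER4 with BIRC3 at 0.61. Over the 15 arrays of weeks 0 and 9 ICAM1 was no looser, with 0.47 to PTGER4 and to MCL1, against 0.42 for PTGER4 with BIRC3. Over the 15 of weeks 3 and 6 ICAM1 had -0.0015 with PTGER4 and 0.26 with MCL1. ICAM1 and CXCL10 correlated at 0.43, and ARG2 with CXCL10 at -0.25. These are descriptions, since the arrays share groups, dyes and slides, and genes were chosen partly for these ratios.

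Among the other 1086 named genes, those named here are from the 3 most like each member over the 30 arrays. PTGER4 was most like MCL1 (r = 0.79), INPP5A, an inositol polyphosphate phosphatase (0.79), and BRD2, a bromodomain protein (0.74). MCL1 was like FBXO9 (0.80) and PTGER4 (0.79), and BIRC3 most like ANXA1, annexin A1 (0.77), MCL1 (0.71) and INPP5A (0.71). ARG2 was most like C5AR1, the receptor of complement C5a (0.90), TLR4, the endotoxin receptor (0.87), and LTF, lactoferrin of neutrophil granules (0.86). TLR4 and LTF also belong to the monocyte and the neutrophil marker lists. ICAM1 was most like the MHC class I genes DLA-64 (0.66) and DLA88 (0.60) and PTAFR, the receptor of platelet-activating factor (0.60), and CXCL10 like ALDOC, an aldolase (0.67), MAL (0.66) and DLA-64 (0.63). The DLA genes are near-identical paralogs, whose probes may share signal. The median correlation of a member with all named genes lay between 0.01 and 0.05.

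**Figure D3:**
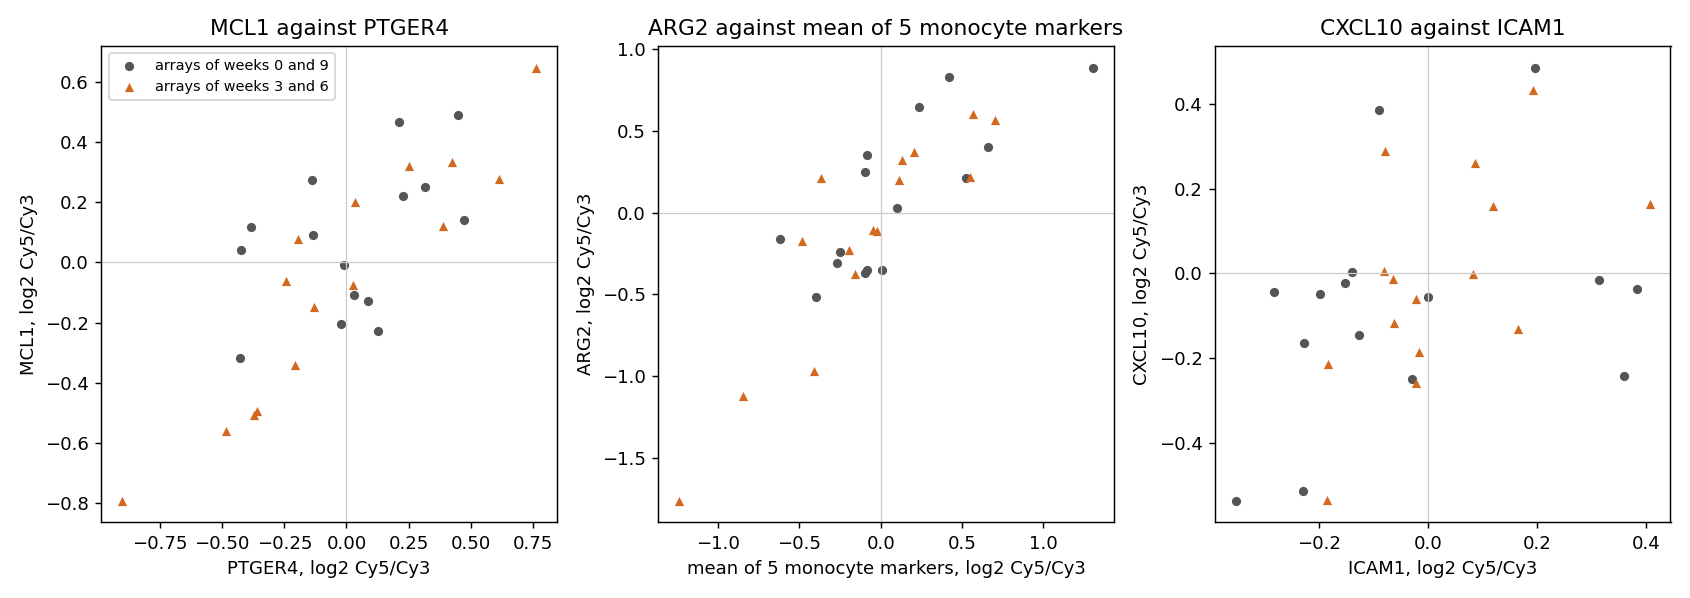
Dye-adjusted log2 ratio of Cy5 over Cy3 on each of the 30 arrays for MCL1 against PTGER4 (left), ARG2 against the mean of 5 monocyte markers (middle) and CXCL10 against ICAM1 (right). Grey circles are arrays of weeks 0 and 9 and orange triangles those of weeks 3 and 6; the first pair has r = 0.79 and the second r = 0.84, while the third, at 0.43, is loose.

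Genes around the members in their pathways were read from 8 lists. Of 213 listed genes other than the members 77 were measured, and 11 were called from week 0 to 9 on kibble (4 higher, 7 lower), 5 on meat (3 higher, 2 lower), 0 between the diets at week 0, 5 at week 3 (1 higher on meat, 4 lower) and 8 at week 6 (1 higher, 7 lower). As shares of the 77 these were 14.3%, 6.49%, 0%, 6.49% and 10.4%, beside the shares of all units given above. The genes named below are from the called ones with the smallest p of each list, up to 4 per comparison.

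Prostanoid synthesis and receptors held 11 measured genes of 25, and the same pair was called from week 0 to 9 on both diets. PTGS1, the constitutive cyclooxygenase, rose by 1.07 ± 0.28 log2 (SE, adjusted p 0.0113) on kibble and by 1.09 ± 0.28 (adjusted p 0.0173) on meat. PTGDR2, a receptor of prostaglandin D2, fell by 0.46 ± 0.08 (adjusted p 0.000601) and by 0.35 ± 0.08 (adjusted p 0.0113), all by limma and on 4 of 4 arrays. At week 6 PTGS1 was lower on meat, at -1.66 ± 0.28 log2 (SE, adjusted p 0.00249 by limma). Without array 1 with kibble in Cy3 that value was -1.42 (adjusted p 0.0454 by limma). The week 6 call was lost in 1 of the 19 fits other than those without an array. Without array 2 of the meat pair, the meat changes of PTGS1 and PTGDR2 from week 0 had adjusted p of 0.0746 and 0.0813 by limma, and PTGS1 also lost its call without array 3 (0.0654) or array 4 (0.0626). On kibble the PTGS1 call was lost by median centring, at 0.71 with an adjusted p of 0.0759, and with the slide as a fixed block, at 1.00 with 0.0508, and the PTGDR2 call with the arrays of both groups alone, at -0.45 with 0.0722, by limma.

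Platelet markers, 5 measured of 7 listed, moved with PTGS1. From week 0 to 9 on kibble 3 of the 5 were called higher by limma, GP1BA at 1.07 ± 0.27 and CLU at 0.56 ± 0.15 log2 (SE) with SELP, and on meat 2, GP1BA at 0.93 ± 0.27 and SELP at 1.05 ± 0.25. At week 6 all 5 were called lower on meat, with a median of -1.26, GP1BA at -1.83 ± 0.28 and ITGA2B at -1.38 ± 0.28. Fitted values of all 5 were already below 0 for meat over kibble at week 0, the start of feeding, with a median of -0.61. There 0 were called, and 4 had an unadjusted p under 0.05 by limma. The medians for meat over kibble were -0.78 at week 3 and -0.54 at week 9. The mean log2 signal of these markers ran from 10.49 to 11.11 at week 0 and from 11.18 to 12.65 at week 9 on kibble, from 9.88 to 10.70 and from 10.78 to 11.37 on meat, and at week 6 from 11.13 to 12.25 on kibble and from 9.88 to 10.94 on meat. The part of platelet RNA in the PTGS1 values was not tested.

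Of 9 measured genes of 30 in cyclic AMP signalling and its response, all calls were of lower values. FOSB, an AP-1 factor, fell from week 0 to 9 by 0.26 ± 0.08 log2 (SE, adjusted p 0.0263) on kibble and by 0.27 ± 0.08 (adjusted p 0.0276) on meat. ADORA2A, an adenosine receptor coupled to cyclic AMP, was lower on meat at week 3, at -0.53 ± 0.13 (adjusted p 0.0172), all by limma. Each of these calls was lost without single arrays. Without array 4 of the kibble pair FOSB had -0.17 (adjusted p 0.175), without array 2 of the meat pair it had -0.22 (0.169), and without week 3 array 2 with meat in Cy3 ADORA2A had -0.38 (0.216), all by limma.

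Apoptosis genes other than MCL1 and BIRC3 moved in both directions. In the BCL2 family, with 7 measured genes of 16, BAK1, a pro-apoptotic pore former, fell by 0.27 ± 0.06 log2 (SE, adjusted p 0.00574 by limma) from week 0 to 9 on kibble. Among 14 measured of 31 IAP, caspase and death receptor genes, the death ligand TNFSF10 (TRAIL) rose by 0.42 ± 0.09 (adjusted p 0.00218) and MDM2, the regulator of p53, by 0.19 ± 0.06 (adjusted p 0.0305) on kibble. DIABLO, an antagonist of IAP proteins, fell by 0.37 ± 0.11 (adjusted p 0.0259) and CASP9, the initiator caspase of the mitochondrial pathway, by 0.20 ± 0.06 (adjusted p 0.0337) there, all by limma. On meat MDM2 rose by 0.27 ± 0.06 (adjusted p 0.00782 by limma). The kibble value of MDM2 changed sign by median centring, to -0.0045. That of TNFSF10 was 0.02 by median centring, with an adjusted p of 0.93 by limma.

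The calls of BAK1 and TNFSF10 held in each of the 30 fits without an array, but with the arrays of both groups alone BAK1 had -0.26 (adjusted p 0.0581) and TNFSF10 0.27 (adjusted p 0.115) by limma. Those of DIABLO, CASP9 and MDM2 on kibble were lost in 3, 8 and 4 of 30 such fits, and with array 2 of the kibble pair left out CASP9 had -0.18 (adjusted p 0.124) and MDM2 0.15 (adjusted p 0.162) by limma. DIABLO without array 1 of that pair had -0.33 (adjusted p 0.0793), and MDM2 on meat without array 2 of the meat pair 0.24 (adjusted p 0.0561). FASLG, the Fas ligand of cytotoxic cells, was lower on meat at week 6, at -0.43 ± 0.13 (SE, adjusted p 0.0428), a call lost in 11 of 30 fits, with -0.28 (adjusted p 0.347) without array 1 with kibble in Cy3. From week 3 to 6 on meat, where 2.25% of all units were called (0.64% without array 4 and 0.96% without array 2 of that pair), 2 of the 77 listed genes were called (2.60%). They were CASP4, an inflammatory caspase, at 0.50 ± 0.13 (adjusted p 0.0459, lost in 21 of 30 fits), and the chemokine CCL4 at -0.63 ± 0.14 (adjusted p 0.0196, lost without array 2 or 4 of that pair), all by limma.

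Among NF-kB factors and inflammatory targets, with 20 measured of 38, 0 were called from week 0 to 9 on either diet by limma, with 1 gene on kibble and 0 on meat at an unadjusted p under 0.05. At week 3 IL12A, a subunit of interleukin 12, was higher on meat by 0.43 ± 0.10 log2 (SE, adjusted p 0.0131). The chemokine CCL5 was lower, at -1.30 ± 0.25 (adjusted p 0.00443), as was TLR4, at -0.70 ± 0.16 (adjusted p 0.0131). At week 6 IL12A was higher by 0.33 ± 0.09 (adjusted p 0.0315), and CCL5 and CCL4 were lower, at -1.27 ± 0.24 (adjusted p 0.00333) and -0.58 ± 0.14 (adjusted p 0.0166), all by limma. CCL5 and FASLG also stand on the list of cytotoxic cell markers, of which 2 of 6 were called lower on meat at week 3 (median -0.46) and 4 of 6 at week 6 (PRF1, KLRD1, CCL5 and FASLG, median -0.58), and their part in these values was not tested.

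CCL5 kept its call without any single array in both weeks, with an adjusted p of 0.0438 at week 6 without array 1 with kibble in Cy3. Of the 19 fits other than those without an array, 2 lost the CCL5 call at week 3 and 1 at week 6. With the slide as a fixed block CCL5 had -1.14 at week 3 (adjusted p 0.0598), both p by limma. At week 3 IL12A had 0.34 (adjusted p 0.157) without array 2 with meat in Cy3, and TLR4 had -0.60 (adjusted p 0.0708) without the array with kibble in Cy3. At week 6 IL12A had 0.19 (adjusted p 0.344) and CCL4 -0.50 (adjusted p 0.145) without array 1 with kibble in Cy3, all by limma. The interferon list, with 9 measured of 30, had 1 call. CXCR3, the receptor of CXCL10, fell by 0.74 ± 0.17 log2 (SE, adjusted p 0.00541 by limma) from week 0 to 9 on kibble, on 4 of 4 arrays. That call was lost in 3 of the 19 fits other than those without an array. With the slide as a fixed block, 1 of the 3, it was -0.66 with an adjusted p of 0.0768 by limma.

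The arginine list had 5 measured genes of 24. GATM, which uses arginine to make a creatine precursor, rose by 1.09 ± 0.33 log2 (SE, adjusted p 0.0423) from week 0 to 9 on meat and was lower on meat at week 6, at -1.16 ± 0.33 (adjusted p 0.0369), where NOS3, the endothelial nitric oxide synthase, was lower, at -0.26 ± 0.06 (adjusted p 0.0103), all by limma. The first GATM call was lost in 9 of 30 fits without an array, and without array 1 with kibble in Cy3 the week 6 calls of GATM and NOS3 were lost too, with adjusted p of 0.224 and 0.14. Of 20 adhesion genes 2 were measured, and CD44, a receptor of hyaluronan, rose by 0.55 ± 0.13 log2 (SE, adjusted p 0.00541) from week 0 to 9 on kibble. By median centring that value of CD44 was 0.25, with an adjusted p of 0.15 by limma. CD44 was lower on meat at week 3, at -0.52 ± 0.14 (adjusted p 0.0275), and at week 6, at -0.68 ± 0.13 (adjusted p 0.00384), all by limma. The week 3 call was lost without any one of the 3 direct arrays, with adjusted p up to 0.183, and the week 6 call without array 1 with kibble in Cy3 (0.0623).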

How the data were processed

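Per the file headers, the authors used Feature Extraction, version 10.10.1.1, for the scanner files, which give the median intensity of each spot and of its background in both dyes. Quality flags and probe names were taken from the same deposited files. The deposited matrix gives log2 ratios from the authors. Set against the scanner values, its columns correlated at 0.824 to 0.992 with Cy5 over Cy3, had slopes from 0.581 to 1.02 and medians from -0.00792 to 0.00668, and the exact settings of its normalisation stay unknown. It served as an alternative.

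Here 979 faulty spots were left out and 0 were saturated. Background was corrected by normexp (offset 50), ratios were normalised by loess, and 31691 probes that stood well above background in 7 or more of the 60 channels were kept. The brightest probe stood for each unit. limma 3.58.1 in R 4.3.3 (files read by the data.table package, version 1.17.8) fitted all groups with a dye term for each unit, with 23 residual degrees of freedom, and two-sided p-values were adjusted after Benjamini and Hochberg. Channel levels came from the separate-channel transform with Aquantile. On simulated data the fit was tested for each comparison.

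The members and gene lists were chosen with earlier results of these data known. Named genes are the members, up to 4 called genes with the smallest p per list and tested comparison, and the 3 genes most correlated with each member. Some genes under this rule are not reported here. The 2 genes called from week 3 to 6 on meat were named after their values were seen. The alternatives were other background, signal, scaling, filter, dye, slide, replicate, moderation, weight and probe choices, the loop or the 2 groups alone, separate channels, and each array left out. No sequence was printed, and genome positions were not used here.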

Additional observations from a re-analysis of the deposited data

Results flagged for a closer look

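Of the groups of 4 to 10 values, 84 were examined for a value far from the rest, and 8 had one, where chance flags about 1 in 20 groups. Among log2 ratios, CXCL10 for meat over kibble at week 9 was -0.25 on array 2 with kibble in Cy3 against 0.49 to 0.54 on the others. CXCL10 for week 9 over week 0 on meat was 0.24 on array 2 against 0.01 to 0.05. For week 9 over week 0 on kibble, array 3 was apart for ICAM1, with 0.000362 against -0.15 to -0.13, and for PTGER4, with -0.0101 against -0.43 to -0.39.

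Among log2 signals, ARG2 in the meat group of week 6 was 11.60 in 1 channel against 10.75 to 11.10, and CXCL10 in the kibble group of week 0 was 7.53 in 1 channel against 6.64 to 6.99. ICAM1 in the meat group of week 0 was 8.02 in 1 channel, on the array with many detected spots, against 8.68 to 9.16. PTGER4 in the kibble group of week 3 was 10.19 in 1 channel against 10.70 to 11.01, and that channel lies on the array with the highest PTGER4 ratio of that pair. The diet difference of ICAM1 was above 0 on all arrays at week 0 and below 0 on all arrays at week 3, a change of -0.32 in log2, which was not tested.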

How the results depend on the processing

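Over 49 fits per comparison, of which 30 left out an array each, no called member changed direction. From week 0 to 9 on kibble 1 member (PTGER4) passed in place of 0 with the deposited values, median centring, the filter of 30 channels, array weights, the mean over probes, each probe on its own and the separate-channel fit, and from 0 to 1 passed with an array left out. On meat 1 passed in the separate-channel fit. At week 3, 0 passed in place of 1 with median centring, scaling, a dye term per scan session, the loop alone and the arrays of the 2 groups alone, 2 passed with array weights and the separate-channel fit, and from 0 to 1 with an array left out. The cause was not tested. MDM2 from week 0 to 9 on kibble turned to -0.0045 by median centring. Residuals of same-numbered arrays had a median correlation of -0.02 (from -0.78 to 0.62), against -0.03 (from -0.56 to 0.64) for different numbers. A sample shared by arrays could give either sign, depending on its dyes. Whether the replicate numbers pair the arrays therefore cannot be told from these values. With the replicate block ARG2 at week 3 was -0.78 with an adjusted p of 0.0329 by limma, and 0 members passed from week 0 to 9, as without it. The split of higher and lower calls over all units moved with median centring, from 1311 and 2228 to 1060 and 4569 on kibble from week 0 to 9 and from 598 and 982 to 7 and 120 at week 3, while the median of all units moved by at most 0.088. At week 3 1580 units were called, against 127 with median centring, 573 with a dye term per session and 418 with the slide as a fixed block. Differences between diets in a change have no value from the arrays of 2 groups alone.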
